A study of Mus musculus with 10 samples.

Results

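The genes described here are 38 imprinted genes, found as the rows of the deposited gene table with those symbols, among 52550 genes in all. They lie in 17 imprinted domains on 10 chromosomes, and 16 of the 38 are on chromosome 7. The cells were mouse embryonic fibroblasts (MEFs), connective tissue cells taken on embryonic day 14 from embryos of the inbred strain C57BL/6 and harvested at passage 3. There were 5 libraries from female cells and 5 from male cells, with no other treatment or allele named in the labels. Total RNA was depleted of ribosomal RNA, so unspliced and non-polyadenylated transcripts could enter the libraries, and strand-directed libraries were read on a NextSeq 500. Whether the 5 libraries of each sex stem from separate embryos or separate cultures is not stated, so a p-value here speaks of the spread between libraries, part of which may be technical.

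An imprinted gene is transcribed mainly or wholly from the copy inherited from one parent. The choice is set by DNA methylation laid down in the egg or sperm at an imprinting control region, and such a region commonly governs a cluster of neighbouring genes, a domain, through a long noncoding RNA or an insulator. In fetal tissue, genes expressed from the paternal copy tend to favour growth and genes expressed from the maternal copy tend to restrain it. Embryonic fibroblasts are a common cell for the study of imprinting, because many domains are active in mesodermal tissue. All embryos were of 1 inbred strain, so the parental copies carry no sequence difference and the reads do not show which copy was transcribed. Parental origin is given below only as background.

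The fibroblast identity of the cultures was visible in 8 markers such as Col1a1 and Vim, whose summed level came to 14029 to 19090 CPM, reads scaled to the library total, over the libraries. Summed over 16 markers of blood, endothelium, epithelium, muscle, nerve, liver, germ line and trophoblast, the level was 27.5 to 32.4 CPM in female libraries and 23.6 to 30.4 CPM in male libraries, with 1 to 6 of these markers at 0 in a library. Unique gene reads, the main measure, came to between 30662616 and 45859721 per library. In the sum of the 16 markers, Krt18, Tubb3 and Alb gave the most of these reads, 3397, 2474 and 1707 over all libraries. The sum therefore weighs the tissues unequally. Of the 818 unique gene reads of Pecam1, 778 were intronic. In bulk RNA, fewer cells that express a gene and less RNA per cell cannot be told apart.

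Levels between genes were compared as CPM of unique exon reads per kilobase of exon, given as the mean ± SD over 10 libraries. H19, the noncoding RNA of the H19-Igf2 domain on chromosome 7, had the highest level at 343 ± 63.6, rank 73 among the genes tested. Igf2, the fetal growth factor that shares enhancers with it, followed at 239 ± 42.6. The next were Grb10, an adaptor that restrains insulin and IGF receptor signalling, at 110 ± 7.43, and Igf2r, the receptor that carries IGF2 to the lysosome, at 108 ± 9.68. The levels of Grb10 and Igf2r differed by less than their spread, and these 4 genes stood above the remaining 34 in unique reads.

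**Figure D1:**
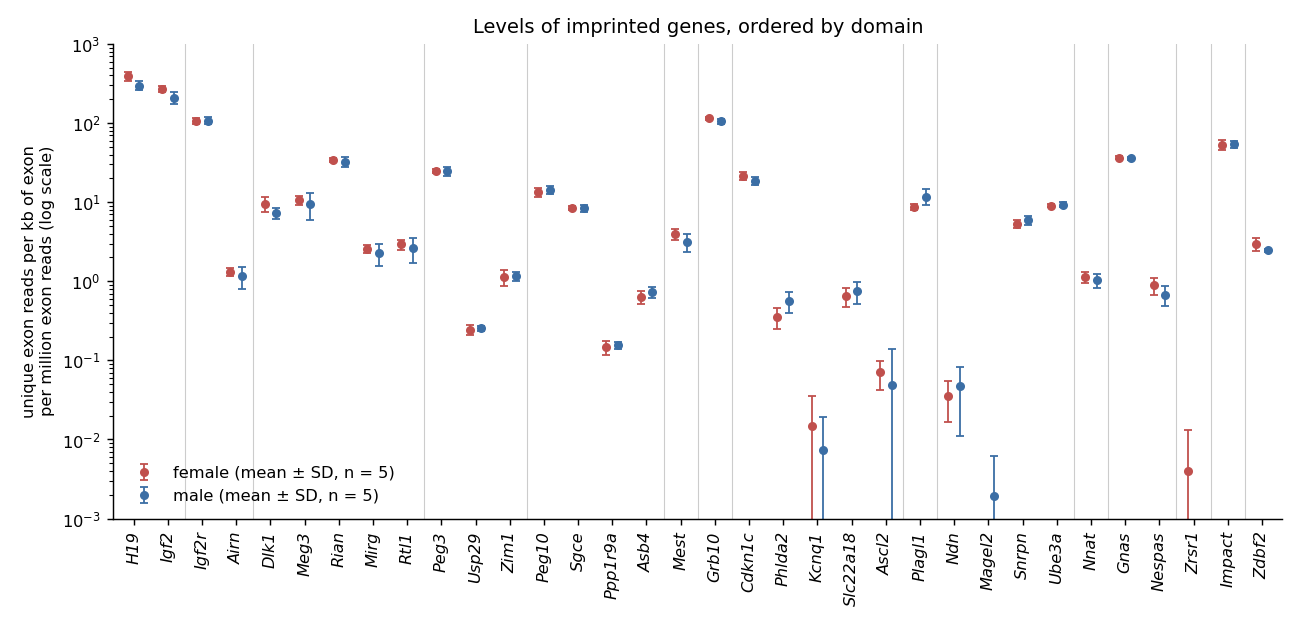
Mean level of each imprinted gene with at least 1 unique exon read, as CPM of unique exon reads per kilobase of exon on a log axis, with female libraries in red to the left of male libraries in blue (bars: SD, n = 5 each, and bars that reach 0 run off the axis). Grey lines part the domains; H19 and Igf2 lead, and levels within the Kcnq1 domain run over a wide range, with Cdkn1c at 20.04 and Kcnq1 at 0.011.

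Below them came Impact, an inhibitor of the amino acid-sensing kinase GCN2, at 53.7 ± 6.13, and Gnas, which encodes the stimulatory G protein alpha subunit, at 36.1 ± 1.48. Rian, a noncoding RNA that hosts small nucleolar RNAs and microRNAs, stood at 33.5 ± 3.54, and Peg3, a zinc finger protein, at 24.9 ± 2.25. The cyclin-dependent kinase inhibitor Cdkn1c (p57) had a level of 20.04 ± 2.63. Within its domain on chromosome 7 the spread of levels was wide. Slc22a18, a transporter, had a level of 0.702 ± 0.202, Phlda2, a pleckstrin homology protein that restrains placental growth, 0.461 ± 0.173, and Ascl2, a trophoblast transcription factor, 0.060 ± 0.064. Kcnq1, a potassium channel subunit, had 13 unique exon reads over all 10 libraries. Further down, Plagl1 stood at 10.3 ± 2.47, Meg3 at 10.02 ± 2.63 and Dlk1 at 8.44 ± 1.97, and these 3 differed by less than their spread. Mest stood at 3.56 ± 0.824, Rtl1 at 2.77 ± 0.688, Zdbf2 at 2.71 ± 0.455 and Mirg at 2.42 ± 0.530, of which the last 3 did not differ beyond their spread. Airn and Nespas, antisense noncoding RNAs, stood at 1.25 ± 0.275 and 0.784 ± 0.223.

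H19 had 646, 684, 562, 686 and 824 CPM in female libraries, against 499, 422, 506, 650 and 534 CPM in male libraries. Igf2 had 1107, 1031, 1089, 1239 and 1222 CPM in female libraries, against 878, 863, 660, 1174 and 877 CPM in male libraries. For both genes the fourth male library reached into the female range, so the groups overlapped. H19 is the host of a microRNA whose hairpin lies at chr7:142577064-142577147 on the minus strand (GRCm38). Its mature arms are shown because H19 has the highest level per length of the 38 genes; they are from RefSeq (GRCm38.p6), with the seed, bases 2 to 8, in capitals.

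mmu-miR-675-5p: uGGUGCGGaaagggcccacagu
mmu-miR-675-3p: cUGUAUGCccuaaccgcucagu

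The Dlk1-Meg3 domain on chromosome 12 pairs coding genes expressed from the paternal copy with noncoding RNAs expressed from the maternal copy. Dlk1, a transmembrane relative of Notch ligands that restrains fat cell differentiation, had 34.7, 35.3, 35.8, 41.0 and 54.7 CPM in female libraries, against 23.8, 29.6, 30.5, 41.4 and 29.6 CPM in male libraries. Meg3, the long noncoding RNA that opens the maternal transcription unit, had 256, 227, 263, 208 and 230 CPM in female libraries, against 332, 200, 188, 147 and 193 CPM in male libraries. The first male library had the highest Meg3 and the lowest Dlk1 of all 10. Rian ranged over 347 to 401 CPM in female libraries and 310 to 421 CPM in male libraries. Mirg, a microRNA host downstream of Rian, had 30.8, 27.1, 27.1, 25.5 and 27.4 CPM in female libraries, and in male libraries it had 37.9 CPM in the first and at most 23.5 CPM in the others. Rtl1, a retrotransposon-derived gene needed in the placenta, ranged over 21.6 to 27.0 CPM in female libraries and 16.9 to 35.1 CPM in male libraries. In all 3 the first male library was again the highest of the 10. Airn, on chromosome 17, was highest in that library and in the third female library: it had 49.2, 48.5, 81.1, 55.7 and 59.2 CPM in female libraries, against 81.2, 57.5, 52.6, 40.2 and 49.8 CPM in male libraries.

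**Figure D2:**
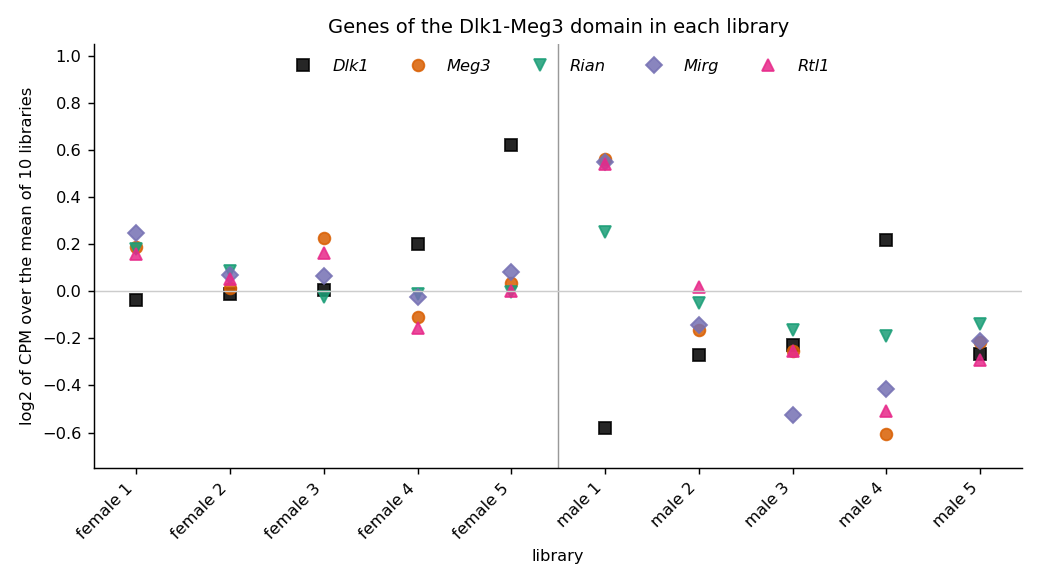
CPM of the 5 genes of the Dlk1-Meg3 domain in each library, as log2 of the value over that gene's mean of 10 libraries, female libraries to the left of male libraries. Meg3, Mirg and Rtl1 lie together at the top of the first male library and Dlk1 at its bottom; in the fourth male library Dlk1 lies above the other genes.

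The microRNAs of this domain are cut from its noncoding transcripts, and 6 of the hairpins in RefSeq lie opposite Rtl1 and 14 within Mirg. Those opposite Rtl1 come from a transcript that runs against Rtl1 and can target it in mouse. One arm of each of 5 of them is printed because the strand that gave the reads assigned to Rtl1 bears on a result below; capitals mark the seed. They lie between 109590459 and 109595387 on chromosome 12 (GRCm38.p6, plus strand), inside the Rtl1 span of chr12:109589193-109600330 on the minus strand.

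mmu-miR-431-5p: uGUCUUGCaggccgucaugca
mmu-miR-433-3p: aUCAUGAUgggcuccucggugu
mmu-miR-127-3p: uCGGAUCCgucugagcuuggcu
mmu-miR-434-3p: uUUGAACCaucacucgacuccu
mmu-miR-136-5p: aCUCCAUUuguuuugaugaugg

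No seed is shared among these 5. Over all 56 mature microRNAs within spans of the 38 genes, 1 seed, GGUUGCC, belonged to more than 1 of them, miR-453 and miR-496a-5p of Mirg. RefSeq lists 29 hairpins within these spans, and the deposited table has a row for each of these, all with 0 exons and 0 reads in every library, so microRNA levels were not measured here.

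In 2 domains, a pair of genes lies head to head on opposite strands. Peg3 and Usp29, a ubiquitin-specific protease gene, are annotated 146 bases apart, and Peg10, a retrotransposon-derived gene, lies 98 bases from Sgce, the epsilon-sarcoglycan gene. The levels within these pairs were unequal. Peg3 averaged 24.9 ± 2.25 against 0.251 ± 0.028 for Usp29, and Peg10 averaged 13.9 ± 1.68 against 8.42 ± 0.612 for Sgce, all as levels per length (SD, n = 10). Zim1, a zinc finger gene of the Peg3 domain, had a level of 1.14 ± 0.197. In the Peg10 domain, Asb4, a SOCS box protein, had a level of 0.680 ± 0.120, and Ppp1r9a, which encodes neurabin, 0.152 ± 0.0233.

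Mest, a hydrolase-fold protein made in mesoderm, had 12.3, 16.8, 10.1, 11.7 and 12.9 CPM in female libraries, against 13.6, 10.1, 7.88, 10.8 and 9.49 CPM in male libraries. Plagl1, the zinc finger transcription factor Zac1, had 56.0, 53.6, 58.8, 66.0 and 53.5 CPM in female libraries, against 58.6, 67.8, 103, 70.3 and 85.9 CPM in male libraries. Zdbf2, a zinc finger gene on chromosome 1, had 28.8, 28.3, 27.7, 22.9 and 36.4 CPM in female libraries, against 22.4, 26.5, 23.8, 24.8 and 23.4 CPM in male libraries. All 3 had ranges that overlapped between the sexes. Ube3a, the ubiquitin ligase whose imprint is confined to neurons, was the steadiest of the 30 imprinted genes tested below: its highest library was 1.12-fold above its lowest. Its level averaged 9.18 ± 0.501, and that of Snrpn, a small ribonucleoprotein of the same domain, 5.62 ± 0.709.

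Spread between libraries was described by the SD of log2 CPM around the mean of each sex and its percentile among all genes with a mean of at least 1 CPM. Over the 29 imprinted genes at that level, the median percentile was 72.0. Ube3a was at percentile 2.92, Grb10 at 14.5 and Sgce at 20.3. At the other end, Kcnq1 was at percentile 90.4, Airn at 89.2, Meg3 at 87.0 and Dlk1 at 82.4. The percentile was not matched for read count. Kcnq1 had 521 unique gene reads over 10 libraries, 508 of them intronic, against 85444 for Meg3, so sampling of few reads adds to its spread. The highest library was 2.25-fold above the lowest for Meg3 and 2.29-fold for Dlk1.

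Unique and total reads gave very different pictures for several genes that lie inside another gene. What made a read count as unique is not given in the sources used here, so a match to several places and a match to several genes cannot be told apart. Of the 38 genes, 22 had more than 90% of their total reads among the unique reads, and 8 had under 50%. Ndn, the single-exon gene of necdin, had 38074 total reads and 44 unique reads over 10 libraries. Its neighbour Magel2, also single-exon, had 168 total and 1 unique read. Both lie within the span of the noncoding gene Gm32061, as does single-exon Mkrn3, with 226 total and 0 unique reads. Single-exon Peg12 lies beyond that span and had 4188 total and 4169 unique reads. The part of the enclosing gene was not tested. Zrsr1 and Mcts2 are retrogenes, copies of X-linked Zrsr2 and Mcts1 that lie inside Commd1 and H13. Zrsr1 had 2599 total and 2 unique reads, and Mcts2 had 2806 total and 0 unique reads. Zrsr2 itself had 11526 total and 11508 unique reads, and Mcts1 had 7184 total and 7178 unique reads. Among all single-exon rows with at least 100 total reads, 31.4% had under 10% unique, against 5.21% of rows with 2 or more exons.

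In total reads, Ndn had 81.5, 86.8, 81.2, 86.2 and 82.7 CPM in female libraries, against 68.9, 87.1, 91.5, 100.3 and 81.5 CPM in male libraries, with overlapping ranges. Its level per length was 31.7 in total reads, against 0.042 in unique reads. Gnas had a level of 106 in total reads, against 36.1 in unique reads, and Nnat, a small proteolipid gene inside Blcap, 6.03 against 1.08. The order of the genes by level therefore rested on the kind of read: in unique reads Ndn stood below Asb4, and in total reads above Rian at 28.9.

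A pair of noncoding genes of the set had rows with no read in any library. Kcnq1ot1, the antisense RNA that silences the Kcnq1 domain on the paternal copy, is listed with 0 exons and at 0 reads, and lies wholly within Kcnq1 over 84395 bases. The Kcnq1 row held 41147 total intron reads, of which 508 were unique, and 16 total exon reads. Peg13, which lies in an intron of Trappc9, is likewise listed with 0 exons and at 0 reads; 35.3% of the total intron reads of Trappc9 were not unique. Rows with 0 exons numbered 19072 in the table, and 70.9% of them had 0 total reads. The 0 of Kcnq1ot1 and Peg13 was therefore not read as a level. Snurf, an upstream reading frame of the Snrpn transcript, had 4 total and 0 unique reads.

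Hosts differed in how many of their intron reads were unique. H13, around Mcts2, had 0.930% of its total intron reads outside the unique ones, and Blcap, around Nnat, 7.08%. Commd1, around Zrsr1, had 122247 total intron reads and 17 unique ones. Igf2r had 24741 total and 3857 unique intron reads; Airn, the noncoding RNA that silences Igf2r on the paternal copy, overlaps it by 28354 bases. The labels call the libraries directional, but whether the authors counted by strand is not stated, so reads of Igf2r and Airn within the overlap, and of Gnas and its antisense Nespas, cannot be told apart.

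Exon and intron reads were split for the genes with at least 20 unique gene reads and 1 intron read in every library, 28 of the 38. Over 12510 eligible genes, the median intron share was 19.8% of unique gene reads (interquartile range 9.01% to 40.3%). These had 2 or more exons, at least 1 kb of intron and a mean of at least 1 CPM. H19, with 243 bases of intron, and Cdkn1c, with 673, were not among them. Airn had an intron share of 94.2% ± 1.00 (SD, n = 10), Nespas of 59.5%, Mirg of 55.2% ± 2.78, Meg3 of 40.9% ± 0.926 and Rian of 20.5% ± 2.37. H19 stood at the other end with 0.048% ± 0.020. The noncoding RNAs therefore did not form 1 class on this measure: H19, whose introns span 243 bases, had few intron reads, as did Igf2 at 0.186%, and the reads of Airn were nearly all intronic.

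**Figure D3:**
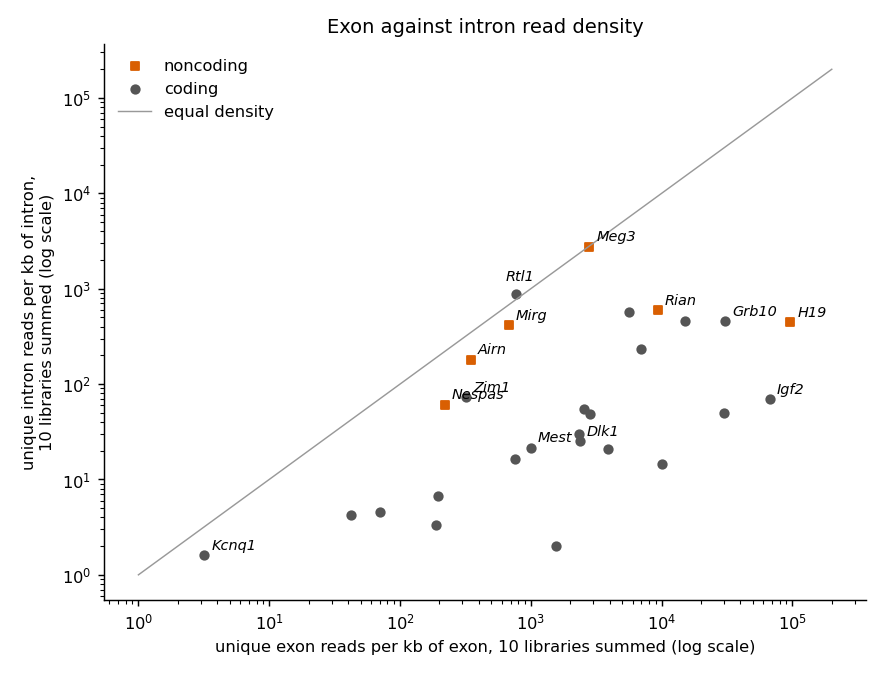
Unique intron reads per kilobase of intron against unique exon reads per kilobase of exon, 10 libraries summed, both axes on log scales, for 28 imprinted genes (orange squares noncoding, grey circles coding). Meg3 and Rtl1 lie on the line of equal density, Mirg, Airn and Kcnq1 near it, and H19 and Igf2 far below it. For Kcnq1, 508 of 41147 total intron reads were unique.

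Since introns are longer than exons, the density of reads per base was also compared. Intron density as a share of exon density was 98.8% for Meg3, 60.9% for Mirg, 51.7% for Airn, 27.7% for Nespas and 6.37% for Rian, against a median of 4.26% over all eligible genes. Meg3 was at percentile 96.1 of those genes and Rian at 64.3. Among exon reads, 31.6% crossed an exon junction in Rian, 13.6% in Mirg, 8.32% in Meg3 and 3.12% in Airn, with a median of 24.0% over all eligible genes. In unique reads, Meg3 gave nearly as many reads per base between its annotated exons as within them. Of its 59936 total exon reads 50550 were unique, against 34894 of 34915 intron reads. Its intron share was lower in total reads, at 36.8% ± 0.827.

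Rtl1 gave the same kind of profile although it is a coding gene. Its intron density was 115% of its exon density, and 0 of its 4912 unique exon reads crossed the junction of its 2 exons. Of the other coding genes, Kcnq1 had 50.5%, Zim1 22.8%, Cdkn1c 10.04% and Ppp1r9a 9.95%, while Dlk1 had 1.07% and Igf2 0.104%. The Kcnq1 value rested on 13 unique exon reads and on 508 unique of 41147 total intron reads, so it holds for unique reads alone. Reads of Rtl1 and of the antisense transcript that carries the 5 microRNAs printed above cannot be told apart without the strand.

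In the comparison of female with male cells, 30 of the 38 genes passed the filter on low counts, and none was called at an adjusted p under 0.05 (edgeR's quasi-likelihood test with Benjamini-Hochberg adjustment over 16602 genes). Over all genes, 15 were called, which is 0.0904%. At an unadjusted p under 0.05 there were 6 imprinted genes, or 20% of those tested, 4 of them higher in females, against 5.55% of all genes, 2.05% being higher in females. That count depended on the libraries: without male replicate 1 it was 11 of 30 (36.7%, 9 higher in females), against 8.18% of all genes, and without female replicate 5 it was 4, with 2 higher in females. With the replicate number as a block it was 10 (33.3%, 8 higher in females), against 8.94% of all genes. The median log2 fold change, female minus male, was 0.04 over the 30 genes and 0.00 over all genes, with 19 above 0 and 11 below. For none of the 30 did the ranges of the sexes separate; that happened for 0.976% of all genes.

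The 6 were H19, Plagl1, Igf2, Zdbf2, Phlda2 and Dlk1. Dlk1 averaged 40.3 ± 8.45 CPM in female and 31.0 ± 6.39 CPM in male libraries (mean ± SD of 5 libraries each), a log2 difference of 0.38 ± 0.16 (SE; edgeR adjusted p = 0.854). Zdbf2 averaged 28.8 ± 4.85 CPM in female and 24.2 ± 1.58 CPM in male libraries, a log2 difference of 0.25 ± 0.10 (edgeR adjusted p = 0.761). Phlda2 had 0.325, 0.231, 0.232, 0.337 and 0.393 CPM in female libraries, against 0.427, 0.452, 0.288, 0.695 and 0.589 CPM in male libraries, on 149 reads in all. Its log2 difference was -0.70 ± 0.30 (edgeR adjusted p = 0.844). These differences did not pass the test, as was the case for H19 (edgeR adjusted p = 0.597), Plagl1 (0.647) and Igf2 (0.670).

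**Figure D4:**
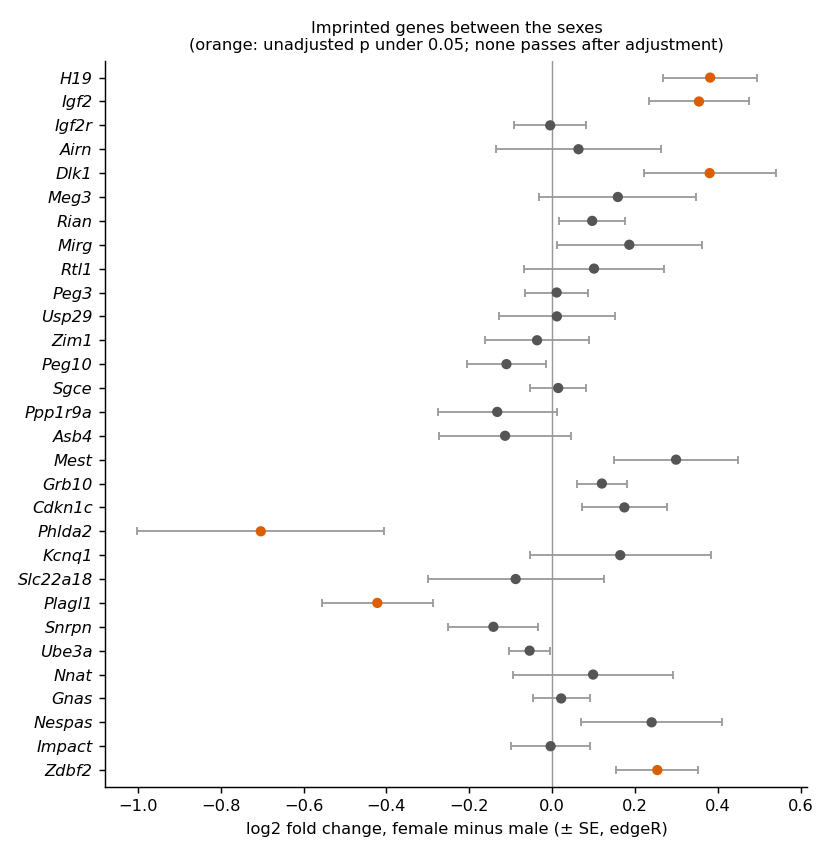
Log2 fold change, female minus male, with its standard error, for the 30 imprinted genes tested, in domain order; orange marks an unadjusted edgeR p under 0.05. Phlda2 at -0.70 and Plagl1 at -0.42 lie farthest to the male side and H19, Dlk1 and Igf2 to the female side, and none passes after adjustment.

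Mest differed by 0.30 ± 0.15 (SE; edgeR adjusted p = 0.925), Grb10 by 0.12 ± 0.06 (edgeR adjusted p = 0.930) and Cdkn1c by 0.17 ± 0.10 (edgeR adjusted p = 0.981) on the log2 scale, and none of these passed. Other genes lay closer to 0: Igf2r differed by -0.0048 ± 0.087, Impact by -0.0039 ± 0.095, Peg3 by 0.01 ± 0.08, Gnas by 0.02 ± 0.07 and Ube3a by -0.05 ± 0.05 on the log2 scale, female minus male (SE). With total reads, 34 of the 38 genes could be tested and 0 were called; Ndn differed by -0.04 ± 0.08 and Mcts2 by 0.17 ± 0.09. In the authors' deposited table, which gives its own test of the sexes, the smallest false discovery rate among the 38 was 0.270, for H19. That table gave 0.340 for Plagl1 and 0.563 for Igf2.

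The intron share was also compared between the sexes, with a two-sided exact permutation test whose smallest possible p is 0.00794. None of the 28 genes passed after adjustment, as for 0% of 11922 genes in all; among 28 genes, at least 5 at that smallest p would be needed for any to pass. Mest was the 1 gene with an unadjusted p under 0.05: its intron share was 7.25%, 8.24%, 9.34%, 9.16% and 8.94% in female libraries, against 10.5%, 10.6%, 17.1%, 12.1% and 14.5% in male libraries. The groups did not overlap (exact permutation p = 0.00794, adjusted p = 0.222), while 1.84% of all genes had an unadjusted p under 0.05 in this test. Mest rested on 450 unique intron reads over all libraries, and it overlaps the end of Copg2 on the other strand.

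Ratios within a library were compared for 12 pairs of genes that share a domain or a host. No pair passed after adjustment, and 1 had an unadjusted p under 0.05; a lone pair at the smallest possible p would have an adjusted p of 0.0952, so no pair could pass alone. Phlda2 over Cdkn1c, both growth restrainers of the Kcnq1 domain, had a log2 ratio of -6.73 ± 0.417 in female and -5.91 ± 0.455 in male libraries (SD, n = 5 each; exact permutation p = 0.0317, adjusted p = 0.381). The log2 ratio of H19 over Igf2 was -0.75 ± 0.166 in female and -0.76 ± 0.240 in male libraries. Within the Dlk1-Meg3 domain, the log2 ratio of Meg3 over Dlk1 spanned 1.83 to 3.80, with an SD of 0.531 over 10 libraries, and that of Rtl1 over Dlk1 had an SD of 0.521. The SD was 0.131 for Mirg over Meg3 and 0.203 for Rian over Meg3.

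Covariation was measured over the 10 libraries as Pearson r of log2 CPM for all 406 pairs of the 29 genes with a mean of at least 1 CPM. After Benjamini-Hochberg adjustment, 6 pairs passed, and these are the 6 pairs that Meg3, Rian, Mirg and Rtl1 form. Their r reached or passed 0.88, a limit set by the smallest r among them. The 23.1% of the 26 pairs within a domain that reached it, in absolute r, are therefore these same 6 pairs, all from 1 domain. It was reached by 0% of the 380 pairs between domains, and by 0.384% of 89492131 pairs of all genes with a mean of at least 1 CPM. Meg3 and Rtl1 had r of 0.97 (permutation p = 4e-05, adjusted p = 0.00812) and rho of 0.93 (p = 0.0003, adjusted p = 0.0609). Rian and Mirg had r of 0.95 (permutation p = 3e-05, adjusted p = 0.00812) and rho of 0.96 (p = 5e-05, adjusted p = 0.0203), the 1 pair that also passed by rank. Without the 2 libraries farthest from the median of the first gene, r was 0.89 for Meg3 and Rtl1 and 0.90 for Rian and Mirg; for the other 4 pairs it lay between 0.75 and 0.89.

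**Figure D5:**
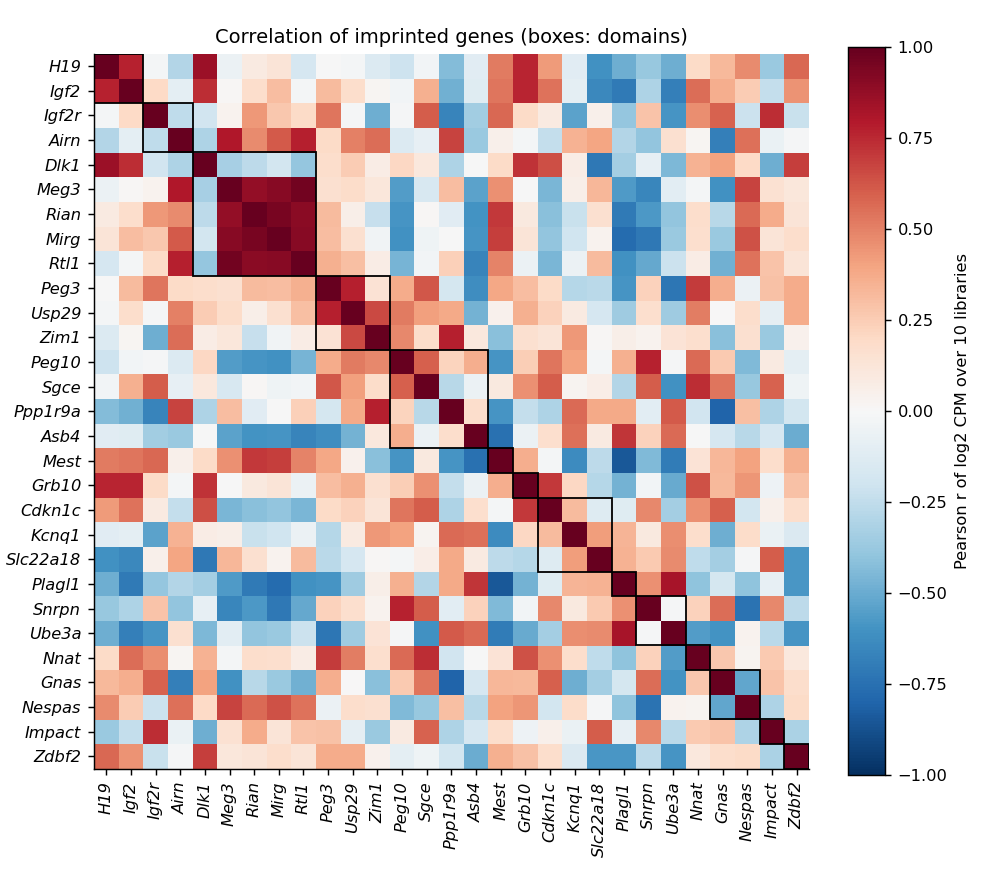
Pearson r of log2 CPM over 10 libraries for each pair of the 29 imprinted genes with a mean of at least 1 CPM, in domain order, red for positive and blue for negative r; black boxes enclose domains. Within the block of Meg3, Rian, Mirg and Rtl1 every r is 0.88 or more, and Dlk1 at its edge is pale blue against all 4.

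The other 4 pairs, with their r, were Mirg with Meg3 (0.91; rho 0.92), Mirg with Rtl1 (0.91; rho 0.82), Rian with Rtl1 (0.90; rho 0.81) and Meg3 with Rian (0.88; rho 0.87). Their permutation p, adjusted, lay between 0.0315 and 0.0393 for r and between 0.0785 and 0.161 for rho. These calls rested on the libraries and reads used. Without the first male library, in which all 4 genes were highest, no pair passed; 2 pairs passed without female replicate 1, 4 or 5 or male replicate 2 or 5, and 3 without male replicate 4. With unique exon reads in place of gene reads, r over the 6 pairs was at least 0.846, and Meg3 with Rtl1 was the 1 pair of them that passed. With the means of the sexes removed, 2 pairs passed, Meg3 with Rtl1 (r = 0.97, permutation p = 3e-05, adjusted p = 0.0122) and Rian with Mirg (r = 0.94, adjusted p = 0.0325). Within female libraries alone r was 0.96 for Meg3 and Rtl1 and 0.30 for Meg3 and Rian, and within male libraries alone 0.97 and 0.96.

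No pair of Dlk1 with these 4 genes passed. Its r with Meg3 was -0.33 (permutation p = 0.346, adjusted p = 0.721; rho -0.12, p = 0.758) and with Rtl1 -0.39 (permutation p = 0.268, adjusted p = 0.685; rho -0.32, p = 0.368). With the means of the sexes removed these were -0.72 (adjusted p = 0.227) and -0.70 (adjusted p = 0.255), and without male replicate 1 they were 0.074 and 0.012. In background terms, Rtl1 and Dlk1 are expressed from the paternal copy and Meg3, Rian and Mirg from the maternal one; the reads assigned to Rtl1 correlated with the maternal group.

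In the other domains no pair passed. H19 and Igf2 had r of 0.77 (permutation p = 0.00866, adjusted p = 0.233; rho 0.85, p = 0.00299), and Peg3 and Usp29 had r of 0.78 (permutation p = 0.0064, adjusted p = 0.216; rho 0.66, p = 0.0432). Peg10 and Sgce had r of 0.60 (permutation p = 0.0665, adjusted p = 0.413; rho 0.60, p = 0.0727). Igf2r and Airn had r of -0.26 (permutation p = 0.463, adjusted p = 0.798; rho -0.41, p = 0.246), a direction that turned to 0.56 with exon reads and 0.29 with the intron share of the library removed. Of the 380 pairs between domains, 41 had an unadjusted p under 0.05 and 0 passed. The share of all gene pairs at that p was not computed. The median absolute r was 0.311 between domains and 0.292 over all pairs of genes with a mean of at least 1 CPM. The smallest p between domains belonged to Mest with Plagl1 (r = -0.85, permutation p = 0.00135, adjusted p = 0.0783; rho -0.88, p = 0.00169) and H19 with Dlk1 (r = 0.85, permutation p = 0.00214, adjusted p = 0.109; rho 0.89, p = 0.00119).

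The genes were also set against measures of the whole library. The share of intron reads in a library, with 2 ribosomal RNA loci left out, ran over 20.2% to 24.4% in female libraries and 17.2% to 23.1% in male libraries. The summed markers of other cell types were the second measure. The third was the share of Gm26917, 1 of these 2 loci, at 7.55% to 10.1% of unique gene reads. Across 87 relations of the 29 genes with 3 library measures, none passed after adjustment and 16 had an unadjusted p under 0.05. The share over all genes was not computed, so this count is not read as a trait of these genes. The share of Gm26917 had r of 0.71 with Mest (permutation p = 0.0221, adjusted p = 0.192; rho 0.62, p = 0.0606). Its r was -0.66 with Kcnq1 (permutation p = 0.0365, adjusted p = 0.244) and -0.65 with Slc22a18 (permutation p = 0.0402, adjusted p = 0.250). The share of intron reads had r of 0.82 with Airn (permutation p = 0.00462, adjusted p = 0.0945; rho 0.53, p = 0.122), 0.79 with Meg3 (permutation p = 0.0101, adjusted p = 0.125; rho 0.61, p = 0.0661) and -0.80 with Gnas (permutation p = 0.00378, adjusted p = 0.0945; rho -0.87, p = 0.00198). Without the 2 libraries farthest from the median intron share, r was 0.55 for Airn, 0.64 for Meg3 and -0.77 for Gnas. With the intron share of the library removed by regression, r of Meg3 and Rtl1 was 0.96 and all 6 pairs of Meg3, Rian, Mirg and Rtl1 passed.

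With the summed markers of other cell types, 8 genes had an unadjusted p under 0.05, a count likewise without a share over all genes. The smallest belonged to Ube3a (r = -0.86, permutation p = 0.00177, adjusted p = 0.0945; rho -0.73, p = 0.0198) and Plagl1 (r = -0.81, permutation p = 0.00481, adjusted p = 0.0945; rho -0.82, p = 0.00594). The sum had r of 0.80 with Igf2 (permutation p = 0.00543, adjusted p = 0.0945; rho 0.72, p = 0.023) and 0.75 with H19 (permutation p = 0.0131, adjusted p = 0.142; rho 0.72, p = 0.0228). Its r was 0.76 with Mest (permutation p = 0.00874, adjusted p = 0.125; rho 0.79, p = 0.00877) and 0.63 with Dlk1 (permutation p = 0.049, adjusted p = 0.267; rho 0.55, p = 0.105). Grb10 (r = 0.74, permutation p = 0.015, adjusted p = 0.145) and Ppp1r9a (r = -0.64, permutation p = 0.0479, adjusted p = 0.267) completed the 8. Without the 2 libraries farthest from the median of that sum, r was -0.54 for Ube3a, -0.42 for Plagl1, 0.67 for Igf2, 0.87 for H19, 0.55 for Mest and 0.65 for Dlk1. With the means of the sexes removed, over all 10 libraries, it was -0.83 for Ube3a, -0.64 for Plagl1, 0.62 for Igf2, 0.50 for H19, 0.65 for Mest and 0.36 for Dlk1. Grb10 had 0.55 and 0.54 in these 2 settings, and Ppp1r9a -0.66 and -0.60. Of the 16 markers, 8 passed the filter on low counts, all 8 with a log2 difference above 0, female minus male. Of these, 3 had an unadjusted p under 0.05 and none was called by edgeR. Krt18, an epithelial keratin, was the highest of them with a level per length of 8.40. The markers below the filter did not share 1 direction. In the authors' deposited test Sox2, Hbb-bs, Ddx4 and Epcam were higher in males, and Myod1, Myog, Tpbpa and Prl3d1 in females. Sox2 had 574 total reads, of which 4 were unique. The part of the 16 markers in the sex differences of H19, Igf2, Plagl1 and Dlk1 was not tested.

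The genes outside the own domain whose log2 CPM was most like that of H19 over the 10 libraries were Telo2 (r = 0.94), Lrwd1 (0.92) and Leng1 (0.92), among 10419 genes with a mean of at least 5 CPM. For Dlk1 they were Fkbp4 (r = 0.97), Tpm4 (0.95) and Anp32b (0.95). For Meg3 they were Ralgps1 (r = 0.97), 4933407K13Rik (0.96) and Kat6b (0.96). These are the highest of more than 10000 values each and are given as a description.

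Of 38 further genes known to be imprinted or to lie beside imprinted genes in mouse, 27 passed the filter on low counts and none was called by edgeR, with 3 at an unadjusted p under 0.05. The most abundant per length were Cd81, a tetraspanin, at 159 ± 8.48, Nap1l4, a histone chaperone, at 36.9 ± 1.86, and Ago2, the slicer of RNA interference, at 36.7 ± 1.04, followed by Osbpl5 at 35.4 ± 0.718 and Htr2a at 22.9 ± 1.41. Of 18 genes that set or keep imprints, 16 were tested and none was called by edgeR, with 1 at an unadjusted p under 0.05. The most abundant per length was Trim28, the corepressor that KRAB zinc finger proteins recruit, at 72.9 ± 3.27. Ehmt2, a histone H3 methyltransferase, stood at 33.9 ± 0.968. The maintenance methyltransferase Dnmt1 stood at 26.2 ± 3.30 and its partner Uhrf1 at 16.2 ± 2.67. Dnmt1 averaged 161 ± 23.7 CPM in female and 148 ± 13.9 CPM in male libraries. The insulator protein Ctcf, which binds the H19 control region, stood at 13.6 ± 0.605. Among the 8 hosts and near copies of these genes, none was called by edgeR and 0 had an unadjusted p under 0.05.

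Promoter windows of RefSeq, 250 bases before to 50 after a start, were available for 29 of the 38 genes, 45 windows in all. They were searched on both strands for TGCCGC, or GCGGCA on the opposite strand, the hexamer bound by ZFP57 when methylated, which keeps imprints after fertilization. It was present in 26.7% of the 45 windows and in 11.6% of 32851 windows of all genes. Snrpn and Snurf share 1 window that holds it; counted once, the share was 25% of 44 distinct windows, 2 of which, both with the hexamer, overlap at Mest. Among windows with at least 20 CpG dinucleotides the shares were close, 28.6% of 14 and 27.8% of 8701. That class held 4 of the 12 windows with the hexamer among the 45, against 2419 of 3813 over all genes. The higher share of the imprinted genes therefore came from windows with fewer CpG, which were not compared on their own. The more upstream of 2 windows of Meg3 is printed because its pairs with the genes downstream passed the correlation test, and the window of Dlk1 because its pairs with them did not. Capitals mark the hexamer; both are on the plus strand of GRCm38.p6, at chr12:109540746-109541045 for Meg3 and chr12:109452573-109452872 for Dlk1.

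Meg3: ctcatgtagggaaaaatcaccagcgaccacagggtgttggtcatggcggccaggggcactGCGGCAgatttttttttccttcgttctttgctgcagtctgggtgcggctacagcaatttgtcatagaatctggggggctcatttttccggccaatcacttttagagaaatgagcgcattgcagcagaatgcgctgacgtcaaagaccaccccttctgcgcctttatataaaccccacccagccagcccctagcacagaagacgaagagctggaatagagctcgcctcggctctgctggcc
Dlk1: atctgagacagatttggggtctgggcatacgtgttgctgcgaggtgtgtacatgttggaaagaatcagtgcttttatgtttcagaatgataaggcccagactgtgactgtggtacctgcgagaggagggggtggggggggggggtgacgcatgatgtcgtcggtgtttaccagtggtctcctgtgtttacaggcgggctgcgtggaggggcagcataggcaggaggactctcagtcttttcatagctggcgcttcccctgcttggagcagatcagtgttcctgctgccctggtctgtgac

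The printed Meg3 window holds the hexamer 1 time and 13 CpG dinucleotides, while its other window, at chr12:109545148-109545447, holds it 0 times and has 1 CpG, and the Dlk1 window holds it 0 times, with 9 CpG. A match is a run of letters and not a measured binding site.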

How the data were processed

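Each library's values are whole-number counts of reads in a single table of 52550 genes, deposited by the authors without normalization, per the file headers. Unique and total reads are kept apart there, as are exon, intron and junction reads; 70 columns of values were left out. The authors' own test of the sexes, deposited beside the counts, gives p-values and a fold written as a signed score, negative where males are higher, per the file headers. Coordinates are on mm10, as the submitters' processing notes name it, and no source used here names the aligner or the counting rule. Of the gene identifiers, 52403 were in GENCODE M21, 95.2% with the same span.

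The genes, lists and tests were chosen with earlier results of these data known. All 38 genes are reported; the most abundant 5 of each further list and the 3 genes most like H19, Dlk1 and Meg3 are named, and correlated pairs are named if called, if partners in a domain, or if among the smallest p between domains. Unique gene reads were filtered (filterByExpr, minimum count 10), scaled by TMM and tested with edgeR 4.0.16 in R 4.3.3 (robust quasi-likelihood, sex as the only term, Benjamini-Hochberg adjustment). Depth was 36295813 to 54643418 total gene reads per library. Reads carry no molecular identifiers, so they are not independent molecules. Intron shares and log2 ratios were compared by two-sided exact permutation, and correlations by 100000 resamples of log2 CPM with a prior count of 0.5 (scipy 1.17.1, Python 3.11.15). No 2 libraries agreed within sampling noise. On simulated counts for 16361 genes, the test of the sexes recovered 76% of genes changed 1.5-fold and 94% of those changed 2-fold. The changed genes were drawn from those with a mean of at least 1 CPM, and 8.60% of the calls were genes left unchanged. Alternatives are in the closing section, among them DESeq2 1.42.0 and limma-voom (limma 3.58.1).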

Additional observations from a re-analysis of the deposited data

Results flagged for a closer look

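In groups of 5 libraries, a library was marked when its gap to the nearest other was a larger part of the group's range than Dixon's 95% limit allows; chance marks about 1 in 20 groups, or about 7 of the 140 groups tested here, and 10 were marked. The first male library stood apart from the other male libraries in 3 genes of the Dlk1-Meg3 domain: Meg3 had 332 CPM there and 147 to 200 CPM in the others, Rian 421 CPM against 310 to 342 CPM, and Mirg 37.9 CPM against at most 23.5 CPM. Kcnq1 had 1.79 CPM in the third male library and 1.10 to 1.23 CPM in the others.

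Among female libraries, the third had an intron share of Meg3 of 39.1%, against 40.6% to 41.0% in the others, and of Asb4 of 35.1%, against 14.3% to 16.9%, and a log2 ratio of Mirg over Meg3 of -3.28, against -3.07 to -3.03. The fifth had an intron share of Igf2 of 0.264%, against 0.147% to 0.179%, and of Snrpn of 15.8%, against 6.22% to 8.16%. The second had an intron share of Kcnq1 of 83.3%, against 95.8% to 100% in the others.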

How the results depend on the processing

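No imprinted gene was called in any of the 20 fits (the first one, 9 alternatives and 10 that leave out 1 library). No intron share or partner ratio was called with 1 library left out or in the further alternatives run for them, 1 for intron shares and 2 for ratios, where the design leaves little room for a call. The count of imprinted genes at an unadjusted p under 0.05 was 6, and 4 to 11 over the other fits. Over all genes, edgeR called 15, against 30 with no filter, 72 with DESeq2 and 12 to 36 with 1 library left out, the highest without the first male library; size factors, upper quartile factors, the stricter filter, limma-voom, total reads and exon reads gave 13 to 16. With the replicate number as a block, 43 genes and 0 imprinted genes were called. The numbers are not stated to pair the samples, and same-numbered libraries deviated together with r of 0.0619 to 0.390; in 3 of 5 numbers a library correlated best with its own number.

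The log2 fold changes near 0 changed sign: Impact was 0.00013 with no filter, Gnas -0.0027 with total reads and Usp29 -0.055 with exon reads. Leaving out 1 library gave -0.087 to 0.24 for Airn, -0.025 to 0.072 for Gnas, -0.057 to 0.040 for Igf2r, -0.061 to 0.072 for Impact, -0.011 to 0.19 for Nnat, -0.050 to 0.063 for Peg3, -0.023 to 0.053 for Sgce, -0.18 to 0.034 for Slc22a18, -0.078 to 0.062 for Usp29 and -0.17 to 0.034 for Zim1. The log2 ratio of H19 over Igf2, female minus male, was -0.058 to 0.10. The remaining signs held, among them H19 (0.30 to 0.47), Phlda2 (-0.83 to -0.55) and the intron share of Mest (-4.98 to -3.34 percentage points).

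Of the 6 correlated pairs, 6 passed with size factors or a pseudocount of 2, 2 with the sex means removed, and 0 to 6 with 1 library left out, when fewer samples enter. With exon reads 2 pairs passed, Meg3 with Rtl1 and Mest with Plagl1. With the intron share of the library removed, an alternative added after the data were seen, 8 passed, the further ones being Mest with Plagl1 and Plagl1 with Ube3a. Leaving out 1 library gave r of -0.53 to 0.074 for Dlk1 and Meg3 and -0.57 to 0.012 for Dlk1 and Rtl1. For Igf2r and Airn r was 0.56 with exon reads and 0.29 with the intron share removed; the cause was not tested. Depth limits Phlda2, Ascl2 and the exons of Kcnq1, which have few reads.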
